A study of Homo sapiens with 4 samples.

Results

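Chromosome 12 held 870 of the 20450 open regions found by ATAC-seq in RKO cells, and these 870 regions are described here along the length of the chromosome. The chromosome was selected on its share of control regions that had no call after CHD7 knockdown, with that share known, so this value and every count of peaks or regions from the same contrast are given as descriptions, with no test. Its members were found by taking every peak on chromosome 12 in the 4 deposited lists and joining peaks that overlapped by at least 1 bp. A member belonged to the short arm when it ended before 33.3 Mb and to the long arm when it began after 38.2 Mb in hg19, which gave 164 and 703 regions, and 3 regions lay between these limits.

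RKO is an established human colon cancer cell line. Both groups were RKO cells grown in the same medium and made stable by lentiviral infection, one with a control lentivirus and the other with shCHD7-2, a short hairpin RNA against CHD7. Each of the 2 groups had 2 libraries, and the labels do not say whether these came from separate cultures or infections, so the spread between them may be technical. The peak lists carry no measure of CHD7 itself, and a single hairpin was used in this assay.

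In ATAC-seq the Tn5 transposase cuts DNA where it is not wrapped in nucleosomes, so reads pile up over promoters, enhancers and other accessible elements. CHD7 is a chromodomain helicase that uses ATP to slide nucleosomes and is best known at enhancers and promoters of developmental genes. Chromosome 12 carries, on its long arm, the HOXC cluster, the type II keratin genes and the cell cycle and p53 regulators CDK4 and MDM2. Regions were not assigned to genes here, because the gene and promoter tables at hand describe GRCh38 and the peaks are in hg19.

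The lists hold called peaks and no read totals. For each peak the reads at its summit and the reads of its surroundings (the local background) were solved from the deposited enrichment and significance, and the commonest local background of a library is called its library background. It was 0.916 and 0.843 reads in control replicates 1 and 2, and 1.40 and 1.62 reads in shCHD7-2 replicates 1 and 2, so the shCHD7-2 libraries were the deeper ones if reads were extended alike. The lists held 13257 and 12092 peaks in control and 7199 and 8715 peaks in shCHD7-2 on chromosomes 1 to 22 and X. List length, depth and treatment divided the 4 libraries in the same way and cannot be told apart.

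Fewer peaks were called on chromosome 12 in shCHD7-2 cells. Control replicates 1 and 2 had 612 and 575 peaks there, and shCHD7-2 replicates 1 and 2 had 239 and 281. Both shCHD7-2 libraries lay well below both control libraries. On average control had 593.5 ± 26.2 and shCHD7-2 had 260 ± 29.7 (SD, 2 libraries each), so that the log2 ratio was -1.19.

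Peaks on the chromosome covered fewer bases in shCHD7-2. They covered 314 and 291 kb in control replicates 1 and 2, against 106 and 125 kb in shCHD7-2 replicates 1 and 2, and the groups did not overlap. For mean covered length the log2 ratio was -1.39. Peaks had a mean width of 513 and 506 bp in control and 443 and 446 bp in shCHD7-2, and over all chromosomes it was 521 and 512 bp in control and 442 and 448 bp in shCHD7-2. The narrower peaks were thus a feature of the whole lists.

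The fall was deeper than that of the lists as a whole. Chromosome 12 held 4.62% and 4.76% of the peaks in control replicates 1 and 2. In shCHD7-2 replicates 1 and 2 it held 3.32% and 3.22%. The means were 4.69% ± 0.0981 and 3.27% ± 0.0676 (SD, 2 libraries each). Their log2 ratio was -0.52, in the same contrast that the chromosome was chosen on. Chromosome 12 had the fifth deepest fall in share among 23 chromosomes, after chromosomes 22, 19, 21 and 17. A share moved the same way in both shCHD7-2 libraries past both control libraries on most chromosomes, downwards on 11 and upwards on 9, so the direction alone is not particular to chromosome 12. On chromosomes 10 and 11, which had similar numbers of peaks in control, the log2 ratio of the share was 0.14 and 0.04.

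**Figure D1:**
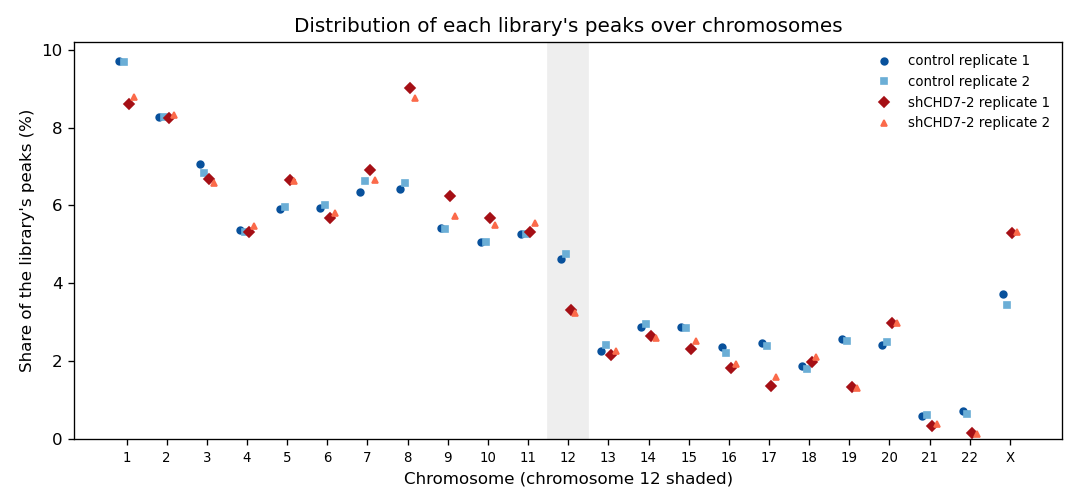
Share of each library's peaks, in percent, that lay on each chromosome, with 1 point per library. On chromosome 12, which is shaded, both shCHD7-2 points (3.32% and 3.22%) lie below both control points (4.62% and 4.76%).

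Both arms had fewer peaks in the shCHD7-2 lists. On the short arm, control replicates 1 and 2 had 128 and 112 peaks and shCHD7-2 replicates 1 and 2 had 34 and 47, which is a log2 ratio of -1.57 and leaves 33.8% of the control mean. On the long arm the counts were 483 and 462 in control and 203 and 233 in shCHD7-2, a log2 ratio of -1.12 that leaves 46.1%. For comparison, the shCHD7-2 lists held 62.8% of the control mean over all chromosomes, 69.3% on chromosome 10 and 64.8% on chromosome 11. Whether the arms differed from each other was not tested.

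Of the 405 chromosome 12 regions called in both control libraries, 193 had no peak in either shCHD7-2 library and are referred to as lost. This is 47.7% (95% Wilson interval 42.8% to 52.5%), against a background of 34.4% over all chromosomes, and it is the value the chromosome was chosen for. By this share it ranked 5 of 23 chromosomes, after chromosome 22 with 73.3%, chromosome 19 with 50%, chromosome 17 with 49.7% and chromosome 21 with 48.1%. Another 97 had a peak in a single shCHD7-2 library, and 115, the retained regions, had one in every library. Intervals given for shares of regions reflect the number of regions only and leave out any variation between cultures.

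The number of lost regions changed when the lists were cut or a library was left out. With lists cut to an equal 7199 peaks, 83 of 240 chromosome 12 regions were lost (34.6%), against 23.1% on all other chromosomes. The cut also takes weak control regions out of the count, and these were lost most often, so it changes more than list length. Without control replicate 1 there were 341 lost regions and without control replicate 2 there were 365, because a single control library then decides what counts as a control region. The settings use the same lists that the chromosome was chosen on. In the comparisons without a control library 59.7% of chromosome 12 regions were lost in each, and 46.8% and 49.9% of those on the other chromosomes.

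On the short arm 40 of 81 control regions were lost (49.4%, interval 38.8% to 60.0%) and 19 were retained. On the long arm 153 of 323 were lost (47.4%, interval 42.0% to 52.8%) and 96 were retained.

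The larger contrast lay within the long arm. In 5 Mb bins, each named by its limits in hg19 and filled by region midpoints, the 11 bins from 35 to 90 Mb lost 96 of 151 control regions (63.6%, interval 55.7% to 70.8%) and retained 19. The 9 bins from 90 Mb to the chromosome end lost 57 of 172 (33.1%, interval 26.5% to 40.5%) and retained 77. The limit at 90 Mb was drawn after the bin values were seen, and these blocks were given no test. With equal list lengths the loss was 54.0% in the proximal block and 15.6% in the distal block.

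Peak numbers of single libraries are given for the same blocks, and they come from the calls on which the limit was drawn. From 35 to 90 Mb, control replicates 1 and 2 had 220 and 218 peaks, and shCHD7-2 replicates 1 and 2 had 45 and 50. This is 21.7% of the control mean. From 90 Mb to the end, the control lists had 263 and 244 peaks and the shCHD7-2 lists had 158 and 183, or 67.3% of the control mean, close to the 62.8% of the lists as a whole. The proximal block held 35.9% and 37.9% of the chromosome 12 peaks of the control libraries but 18.8% and 17.8% of those of the shCHD7-2 libraries, and the distal block held 43.0% and 42.4% against 66.1% and 65.1%. Replicates thus lay within a few percentage points of each other in both groups.

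**Figure D2:**
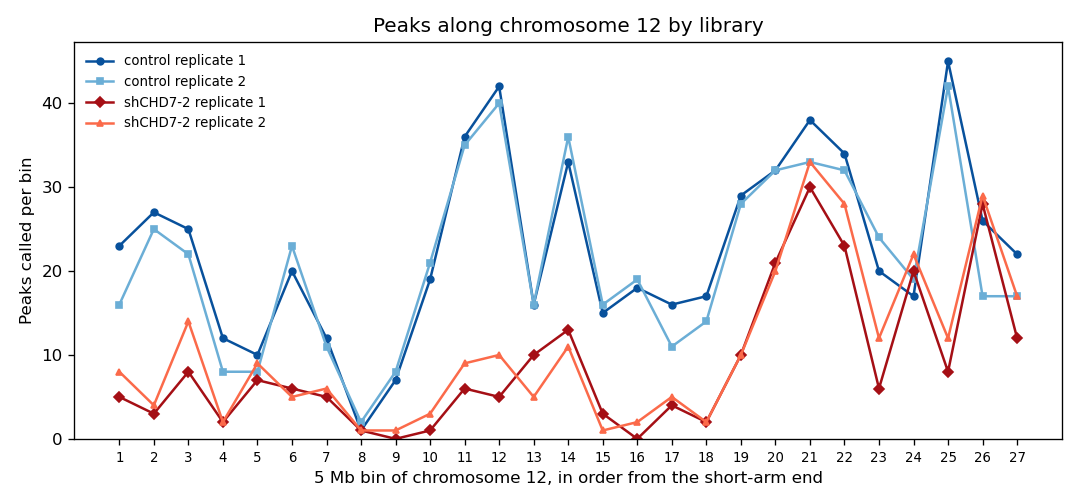
Number of peaks called in each of 27 bins of 5 Mb along chromosome 12, in order from the end of the short arm, with 1 line per library. Both shCHD7-2 lines stay far below both control lines in bins 9 to 12 and 15 to 18 and meet or pass them in bins 24 and 26.

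Peaks were fewer in both shCHD7-2 lists than in both control lists in 21 of 27 bins, and more numerous in both in 2 bins. These were 115 to 120 Mb, with 17 and 19 peaks in control and 20 and 22 in shCHD7-2, and 125 to 130 Mb, with 26 and 17 in control and 28 and 29 in shCHD7-2. Relative to the control mean, 6 of the 9 bins beyond 90 Mb were above the value of the lists as a whole, against 1 of the 11 bins from 35 to 90 Mb and 1 of the 7 bins before 35 Mb.

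The profile along the chromosome was similar in separate pairs of libraries. The log2 ratio of peaks per bin, with 1 peak added to each count, was computed once from the libraries numbered 1 and once from those numbered 2. Across the 23 bins with at least 10 peaks in each control library, the ratios had a Pearson correlation of 0.83 and a Spearman correlation of 0.86. Bins within a library share its depth and list length, and neighbouring bins are not independent.

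Among bins with at least 10 control regions, the most populated were 120 to 125 Mb with 33 regions, 55 to 60 Mb with 28 and 100 to 105 Mb with 27. These 3 dense bins differed widely. Loss was 60.6% from 120 to 125 Mb and 67.9% from 55 to 60 Mb, but 18.5% from 100 to 105 Mb, where 18 of 27 control regions were retained. A high density of control regions therefore did not go with one level of loss, and over 20 bins the Pearson correlation of density with percent lost was -0.10.

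Loss was highest from 75 to 80 Mb, where 12 of 14 control regions were lost (85.7%, interval 60.1% to 96.0%). Control replicates 1 and 2 had 18 and 19 peaks in this bin and shCHD7-2 replicates 1 and 2 had 0 and 2. The next were 70 to 75 Mb with 9 of 11 lost (81.8%) and, on the short arm, 5 to 10 Mb with 14 of 18 lost (77.8%). From 35 to 90 Mb, 6 of 11 bins had no retained region at all, and beyond 90 Mb every bin had at least 3. The 6 include 35 to 40 Mb and 40 to 45 Mb, which had only 1 and 5 control regions. Over all chromosomes, 13 of 417 bins with at least 10 control regions had no retained region, and 4 of these were on chromosome 12.

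Loss was lowest from 115 to 120 Mb, where 1 of 13 control regions was lost (7.69%, interval 1.37% to 33.3%). It was 1 of 12 from 125 to 130 Mb (8.33%) and 4 of 25 from 105 to 110 Mb (16.0%). These low bins are not contiguous: from 110 to 115 Mb 10 of 16 were lost (62.5%) and from 120 to 125 Mb 20 of 33. Within the distal block the retained bins were thus interrupted by bins that lost most of their control regions. On chromosome 12 the SD of percent lost over bins was 25 percentage points, beside 20.9 over the bins of all chromosomes, 16.0 on chromosome 10 and 14.9 on chromosome 11. It was 25.8 on chromosome 16 and 24.5 on chromosome 20, so an uneven profile is not particular to chromosome 12.

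**Figure D3:**
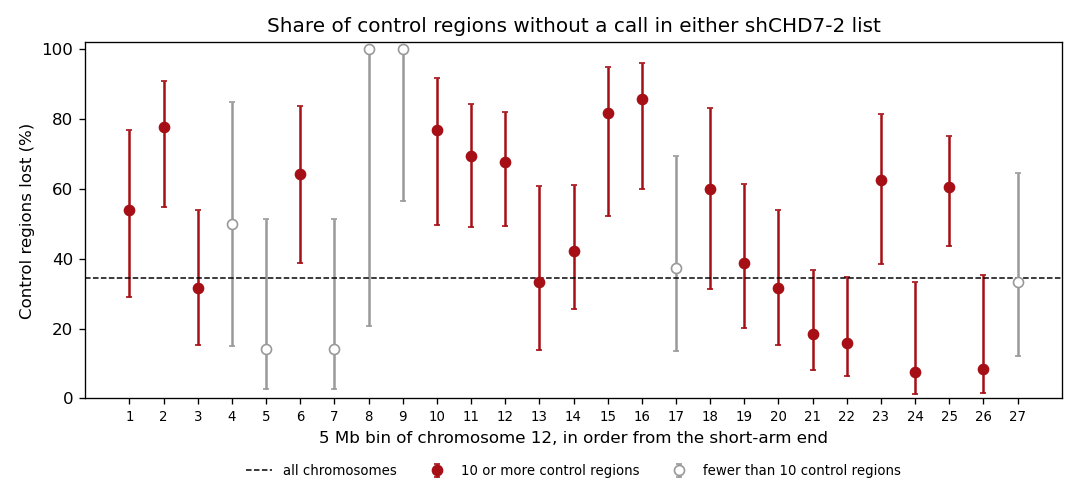
Percent of regions called in both control libraries that had no peak in either shCHD7-2 library, by 5 Mb bin of chromosome 12, with 95% Wilson intervals that cover counting error. The dashed line is the 34.4% of all chromosomes. Filled points are bins with at least 10 control regions, and they range from 7.69% in bin 24 to 85.7% in bin 16.

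Neighbouring regions tended to share their state. After a lost region the next control region along chromosome 12 was also lost in 115 of 192 cases (59.9%), and after a control region that was not lost in 77 of 212 (36.3%). The values were close on the arms, at 60.0% and 37.5% on the short arm and 59.9% and 35.9% on the long arm. Over all chromosomes they were 46.7% and 28%, on chromosome 10 37.6% and 23.7%, and on chromosome 11 32.0% and 25.1%. The median distance between neighbouring control regions was 141 kb on chromosome 12 and 142 kb over all chromosomes.

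The longest run of consecutive lost regions held 11 regions and spanned 1.37 Mb from 75784680 to 77158414. Its control summits ranged from 8 to 23 reads. The longest run of retained regions held 9 and spanned 2.21 Mb from 106696169 to 108909626, with control summits of 14 to 56 reads.

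Lost regions were the weaker ones in control, on chromosome 12 as elsewhere. The percentile rank of a peak by -log10 p within its list was used as a scale, since values from separate lists share none. The median of the mean control percentile was 46.9 for the 193 lost regions and 81.3 for the 115 retained regions. Median summits of lost regions were 13 and 12 reads in control replicates 1 and 2, and the highest was 32 reads.

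The lost share of chromosome 12 was also described by strength. All control regions of the series were divided into 3 groups of like size by mean control percentile. In the weakest group chromosome 12 lost 106 of 143 (74.1%, interval 66.4% to 80.6%) and all other chromosomes lost 58.1%. In the middle group the values were 67 of 147 (45.6%, interval 37.7% to 53.6%) and 34.4%, and in the strongest group 20 of 115 (17.4%, interval 11.5% to 25.3%) and 9.06%. These are the regions the chromosome was chosen on, and the other chromosomes are pooled. The 4 chromosomes with a higher lost share had weaker control regions, with median control percentiles of 36.3 on chromosome 22, 48.6 on 19, 47.3 on 17 and 54.4 on 21, against 59.7 on chromosome 12.

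The proximal and distal blocks of the long arm, set after the bin values were seen, were also described by strength. From 35 to 90 Mb the loss was 84.7%, 60.8% and 36.6% in the weakest, middle and strongest group. From 90 Mb to the end it was 60.3%, 30.8% and 5.26%, near the values of the other chromosomes. The distal block had somewhat stronger control regions, with a median percentile of 61.2 against 56.4 in the proximal block. On the short arm 18 of 20, 20 of 44 and 2 of 17 regions were lost, or 90%, 45.5% and 11.8%.

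**Figure D4:**
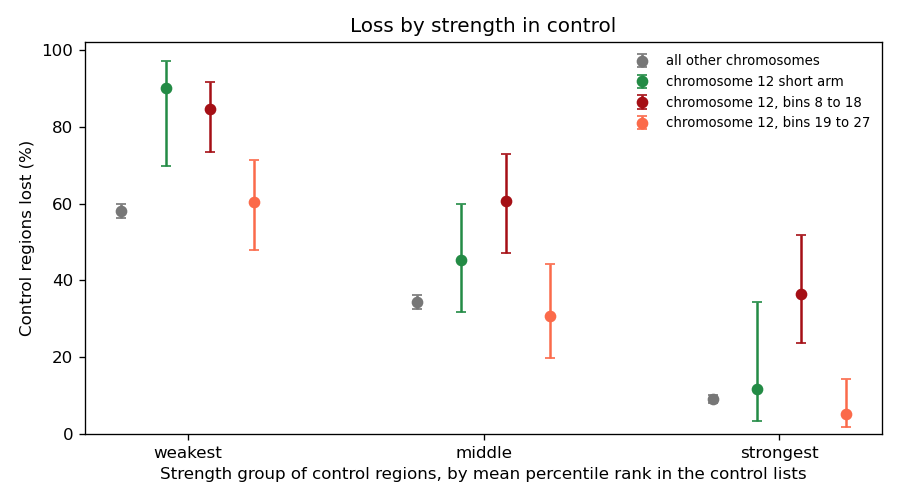
Percent of control regions lost by strength group in the control lists, for all other chromosomes and for 3 stretches of chromosome 12, with 95% Wilson intervals. Bins 8 to 18 (35 to 90 Mb) lie above the other chromosomes in each group, at 84.7%, 60.8% and 36.6%.

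The strongest lost regions show what was missing from the shCHD7-2 lists. The lost region with the highest mean control percentile, 89.9, lay from 72079714 to 72080322 on the long arm (hg19), with 26 and 22 reads at its summit in control replicates 1 and 2. A second lost region, from 72056858 to 72058313, lay in the same bin, was 1456 bp wide and had 27 and 25 reads. Both fall in the 70 to 75 Mb bin, which had no retained region.

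Of the other 3, one lay from 62860301 to 62861092 with 22 and 21 reads in control replicates 1 and 2. Another lay on the short arm from 9101972 to 9102981 with 29 and 20 reads. The last lay from 94070922 to 94071826, beyond 90 Mb, with 26 and 16 reads. A region absent from a list may lie just under the caller's threshold, which in reads rises with the local background. The lowest called summit on chromosome 12 had 6 reads in the control lists and 8 reads in the shCHD7-2 lists. A region with a raised local background needed more.

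Gained regions, called in both shCHD7-2 libraries and in neither control library, were few. There were 12 among the 145 chromosome 12 regions called in both shCHD7-2 libraries (8.28%, interval 4.80% to 13.9%), beside a background of 11.0% over all chromosomes. Keeping only peaks at or above 5 in -log10 q left 6 (8.45%, against 11.7% on all other chromosomes). Equal list lengths gave 19 (14.3% against 19.8%). There were 21 without control replicate 1, 21 without control replicate 2, 64 without shCHD7-2 replicate 1 and 50 without shCHD7-2 replicate 2.

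The gained regions lay mostly toward the end of the long arm, as did all regions called in both shCHD7-2 libraries. Beyond 90 Mb lay 9 of the 12 gained regions and 103 of those 145. The gained share there was 8.74%, near the 8.28% of the chromosome. Of the 12, 5 were in the bin from 125 to 130 Mb, which held 19 of the 145, and 7 were beyond 115 Mb. By mean percentile in the shCHD7-2 lists, the first was an exception at 87.7 and lay close to the centromere from 38450416 to 38451387, with 20 and 19 reads in shCHD7-2 replicates 1 and 2. The other 4 named ones were all in the 125 to 130 Mb bin and were much weaker in rank. They lay from 127232150 to 127232582 (18 and 18 reads), from 127537191 to 127537791 (15 and 19 reads), from 125625451 to 125625771 (16 and 25 reads) and from 128378263 to 128378690 (18 and 18 reads).

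Percentile ranks of the 115 retained regions depend on list length, since a shared region ranks higher in a list that holds more weak peaks. In the lists as deposited, their median percentile was 84.2 and 81.3 in control replicates 1 and 2, and 67.5 and 74.1 in shCHD7-2 replicates 1 and 2. The median shift was -11.5 percentile points, beside -7.62 on all other chromosomes. With each list cut to 7199 peaks, a comparison added after the data were seen, 90 regions remained in all lists. Their median shift was -1.74 points beside -1.73 on the other chromosomes. These 90 are the regions that kept a peak in every cut list, so the shifts come from different sets of regions. The part of list length in the shift was not tested. In 50 of 115 regions (43.5%) both shCHD7-2 ranks were below both control ranks, against 41.3% of retained regions over all chromosomes, and in 11 (9.57%) both were above, against 13.9%. These shares are near the background. Ranked by fold enrichment, the share below was 27% on chromosome 12 and 32.1% on the other chromosomes, and with equal list lengths it was 21.1% and 27.6%.

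In reads, the median summit of the retained regions was 23 and 21 in control replicates 1 and 2 and 15 and 17 in shCHD7-2 replicates 1 and 2. The fold enrichment over local background fell from 7.62 and 7.14 to 5.78 and 5.72. Over all chromosomes the medians were 23, 21, 16 and 18 reads and 7.45, 7.22, 5.77 and 5.72. The strength of what remained called on chromosome 12 was therefore within 1 read of the series as a whole.

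The 5 strongest retained regions were all on the long arm, which held 96 of the 115 retained regions. The first lay from 107167677 to 107168762 with 46 and 56 reads in control replicates 1 and 2 and 33 and 35 reads in shCHD7-2 replicates 1 and 2. The second, from 67662179 to 67663480, had 52 and 56 reads in control and 33 and 26 in shCHD7-2. Both were higher in both control libraries on the scale of reads, although their mean percentiles differed by under 2 points between groups.

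The next were from 82752038 to 82753182 with 42 and 44 reads in control and 26 and 27 in shCHD7-2, and from 115121598 to 115122880 with 48 and 41 reads in control and 34 and 39 in shCHD7-2. The fifth, from 105955750 to 105956699, went the other way, with 33 and 29 reads in control and 39 and 50 in shCHD7-2. It was higher in both shCHD7-2 libraries in reads, and its mean percentile went from 95.0 to 99.2.

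The largest falls in rank, in the lists as deposited, were in regions with summits of 9 to 13 reads in shCHD7-2. From 118745130 to 118745985 the summits were 18 and 17 reads in control and 10 and 9 in shCHD7-2, and the mean percentile fell by 65.0 points. From 123236969 to 123237706 they were 24 and 18 reads against 10 and 11, a change of -62.1 points. From 132673951 to 132674815 they were 21 and 24 against 10 and 11, a change of -61.8 points. The other two lay from 107380500 to 107381130 (-56.4 points) and from 56367212 to 56367953 (-53.5 points), so that 4 of the 5 lay beyond 90 Mb, the block where most retained regions were. With equal list lengths, the regions from 123236969 and 132673951 had a peak in all 4 lists and changed by -59.9 and -57.7 points, and each of the other three had no peak in the shortened list of shCHD7-2 replicate 2.

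The 3 largest rises in rank lay in the distal block, which held 77 of the 115 retained regions. They were in the bins with the lowest loss, 115 to 120 Mb and 125 to 130 Mb, which held 7 and 8 retained regions. From 115371024 to 115371915 the summits were 8 and 9 reads in control and 22 and 25 in shCHD7-2, a change of 66.6 points. From 128044025 to 128044924 they were 18 and 10 against 27 and 29, a change of 44.1 points. From 115106016 to 115106652 they were 17 and 9 against 16 and 19, a change of 33.1 points. In this last region the groups overlapped in reads, and in the first and second they did not. With equal list lengths none of the 3 had a peak in both control lists, so no shift could be computed.

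The 3 widest regions were chosen by merged width, and peaks were wider in control over the whole lists. In each of them both control libraries covered more bases than either shCHD7-2 library, which that choice favours. A library without a call counted as 0 bases, so the contrast is a description only. The widest was 1789 bp, from 99037884 to 99039672, and was retained with 35 and 26 reads in control and 22 and 19 in shCHD7-2. Its peaks covered 1480 and 1724 bp in control and 1130 and 976 bp in shCHD7-2. The region from 14922597 to 14924261 on the short arm, 1665 bp wide, was called in both control libraries with 21 and 19 reads and in shCHD7-2 replicate 2 with 12 reads. The region from 88973043 to 88974635 had 26 and 34 reads in control and was called in shCHD7-2 replicate 1 with 16 reads. Each of the latter was thus missing from 1 shCHD7-2 list.

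The local background at peaks was given as a multiple of the library background. The multiple was 1 where the surroundings held no more reads than the library as a whole, and nearly no peak lay below 1. Over all chromosome 12 peaks the median was 1.46 and 1.49 in control replicates 1 and 2 and 1.2 and 1.11 in shCHD7-2 replicates 1 and 2. Over the peaks of all chromosomes it was 1.55, 1.61, 1.31 and 1.24. All 4 libraries had a lower local background on chromosome 12 than over their whole list.

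At retained regions the picture was mixed, with control replicate 2 at the level of the whole list. There the median on chromosome 12, divided by the median of all retained regions, was 0.972 and 1.000 in control replicates 1 and 2 and 0.918 and 0.956 in shCHD7-2 replicates 1 and 2. Both shCHD7-2 values lay below both control values by a small amount. The means were 0.986 ± 0.0196 and 0.937 ± 0.0264 (SD, 2 libraries each), and their log2 ratio was -0.07. An exact permutation test over libraries, two-sided, gave p = 0.33, which is the smallest value that 2 against 2 can reach. Without shCHD7-2 replicate 1 the log2 ratio was -0.17 and without shCHD7-2 replicate 2 it was -0.13, over the regions then called in all 3 remaining libraries.

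The local background differed more between stretches of the chromosome. On the short arm, 82.4% and 70.2% of shCHD7-2 peaks were at the library background (within 1%), against 23.4% and 13.4% of control peaks. From 35 to 90 Mb the shares were 55.6% and 62.0% in shCHD7-2 and 20.0% and 20.2% in control. From 90 Mb to the end they were 17.1% and 25.1% in shCHD7-2 and 19.4% and 10.2% in control, which is near the shares over all chromosomes of 22% and 29.0% in shCHD7-2 and 17.3% and 13.8% in control. The peaks of shCHD7-2 thus mostly lay at the library background on the short arm and from 35 to 90 Mb, and the control peaks did not. The order of these stretches did not follow the loss, which was 49.4% on the short arm and 63.6% from 35 to 90 Mb. Bins with a small fall could also lie at the library background. From 20 to 25 Mb shCHD7-2 had 88.9% of the control mean of peaks, and both shCHD7-2 medians were 1.00.

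**Figure D5:**
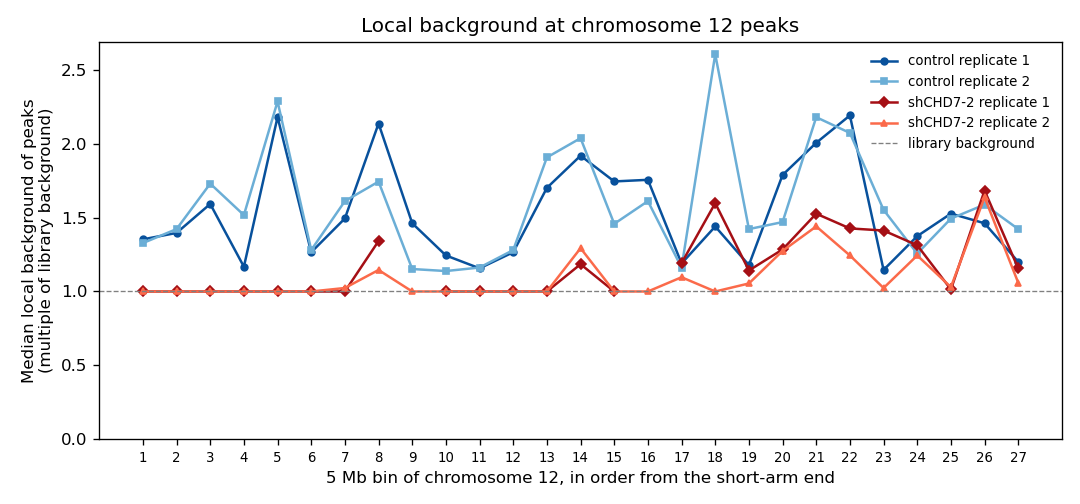
Median local background of the peaks in each 5 Mb bin of chromosome 12, as a multiple of the library background, with 1 line per library and gaps where a library had no peak. The shCHD7-2 lines lie at 1.00 in bins 1 to 6 and reach 1.69 and 1.64 in bin 26, and the control lines are above 1 throughout.

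Over bins with at least 10 control regions, loss tended to be higher where the background at the peaks still called in shCHD7-2 was lower. Across the 19 bins with at least 10 control regions and peaks in both shCHD7-2 libraries, percent lost and the mean relative background of shCHD7-2 peaks had a Pearson correlation of -0.71 and a Spearman correlation of -0.60. With the control background, over 20 bins, the correlations were -0.39 and -0.38. Both measures come from the same lists, and bins of a library share its depth. Some bins with high loss had few shCHD7-2 peaks left to measure. In shCHD7-2 replicates 1 and 2 there were 1 and 3 from 45 to 50 Mb, and 3 and 1 from 70 to 75 Mb. The medians of these bins were 1.00. The part of the local background in the loss was not tested.

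By bases covered, replicates shared more of chromosome 12 with each other than with the other group, but by regions the shCHD7-2 replicates did not. Bases covered in both lists, divided by bases covered in either (the Jaccard index), came to 0.459 between the control libraries and 0.339 between the shCHD7-2 libraries. The 4 mixed pairs ranged from 0.217 to 0.246. The index of a mixed pair is held down by the unequal lengths of its lists. Of the chromosome 12 regions of shCHD7-2 replicates 1 and 2, 61.7% and 52.2% were also called in the other shCHD7-2 library. In control replicate 1 73.2% and 71.6% of them were called, and in control replicate 2 71.5% and 67.3%. Both control lists are longer.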

How the data were processed

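ATAC-seq was performed by the authors on 4 libraries, and per the labels the processing notes name hg19, Bowtie2 2.2.5, SAMtools 1.9, MACS2 2.1.2 and deepTools 3.3.0 without settings. Any Tn5 shift, duplicate removal and read extension are not given in the sources used here, and each would change which positions were called. Each deposited list gives, per peak, a score, the summit's fold enrichment (a ratio), and the -log10 of p and q. The lowest deposited -log10 q was 1.30 to 1.32, so weaker positions were not listed.

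Summit pileup k and background b were solved from fold = (k + 1) / (b + 1) and the Poisson tail, which held for 100% of peaks within 0.001, and the solution was checked on made-up lists. Of chromosome 12 control peaks, 2 and 1 in replicates 1 and 2 had a background below that of the library. Peaks on chromosomes 1 to 22 and X were merged at 1 bp of overlap. Libraries were grouped and numbered by title and compared as the log2 of shCHD7-2 mean over control mean. The local background at retained regions was tested by exact permutation of the 6 assignments, and counts from the contrast the chromosome was chosen on are given without the test planned for them. Shares of regions have 95% Wilson intervals. Named regions were the 5 strongest lost, gained and retained, the 5 largest falls and 3 largest rises in rank, the 3 widest, and the longest runs. Bins were named for most control regions and for highest and lowest loss. The members and these lists were chosen with earlier results of these data known. Same-numbered libraries did not deviate together (correlation 0.01 over 20450 regions). In the 115 retained regions, summit reads of replicates differed by no more than sampling noise (chi-square over degrees of freedom 0.854 in control and 0.677 in shCHD7-2). A call in all 4 libraries was required there, which leaves out regions where replicates disagreed and lowers these values. The lists of replicates held different peaks, so each library counted as 1 replicate. Alternatives were a stricter q, equal list lengths, other merging rules, leaving out each library, a replicate block, other summaries of the background, rank by fold enrichment and shifted bins. Python 3.11.15, NumPy 2.4.6, pandas 2.3.3, SciPy 1.17.1 and matplotlib 3.10.9 were used. No sequence is shown, as no genome of the build of the files was used.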

Additional observations from a re-analysis of the deposited data

How the results depend on the processing

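Peak number, covered length, share of peaks, both arms and the relative local background were lower in shCHD7-2 under each alternative run, all from the same 4 lists. The log2 ratio of the share of peaks stayed between -0.54 and -0.50. With the replicate block it was -1.19 for peaks, -1.39 for covered length, -0.52 for the share, -1.58 and -1.12 for the short and long arm, and -0.07 for the background (for the background, exact sign-flip test, p = 0.5, the smallest 2 pairs allow). The libraries share only a number. Leaving out one library, the background ratio ran from -0.17 to -0.08.

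Percent lost and counts of regions moved with the lists, and so did the percent lost and gained on all other chromosomes. A -log10 q of at least 5 gave 6 gained regions and a loss of 67.2% on the short and 57.9% on the long arm. Equal list lengths gave 83 lost and 19 gained regions, a loss of 36.8% and 33.9% on the arms, and 21.1% of retained regions lower in rank, which fewer control peaks bring about in part by construction. Rank by fold enrichment gave 27%, and the cause was not tested. Leaving out one library gave 233 to 365 lost regions (341 and 365 without control replicates 1 and 2), 21 to 64 gained regions (64 and 50 without shCHD7-2 replicates 1 and 2), a loss of 59.3% to 67.9% on the short arm and 57.5% to 60.4% on the long arm, and 50.8% to 63.6% lower in rank, as a single library then decides a call. The blocks of bins, examined after seeing the data, lost 77.2% and 41.8% at the stricter q, 54.0% and 15.6% with equal lists, and 72.7% to 76.8% and 42.7% to 48.1% without one library. Shifted bins ranged from 18.5% to 90%. Merging at 100 bp of overlap or across 500 bp gave 190 and 201 lost and 12 gained regions each. Depth limits statements on single regions: lost regions had median summits of 13 and 12 reads, and the lowest summit called was 8 reads in the shCHD7-2 lists.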

Other observations

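Regions called in a single library were counted by stretch of chromosome 12. Of all its regions, 164 were on the short arm, 295 from 35 to 90 Mb and 408 beyond 90 Mb. There were 309 called in 1 control library and no shCHD7-2 library, 66 of them on the short arm, 125 from 35 to 90 Mb and 118 beyond 90 Mb. In the reverse case there were 90, of which 5 lay on the short arm, 11 from 35 to 90 Mb and 72 beyond 90 Mb. These regions entered neither the lost nor the gained class, and their shCHD7-2 calls were mostly distal, as were the calls that both made.

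In 18 regions both shCHD7-2 libraries and 1 control library had a peak, and 17 of them lay beyond 90 Mb. Of all 145 regions called in both shCHD7-2 libraries, 103 lay there. Between the arm limits there were 3 regions. The region from 34175135 to 34175771 was called in both control libraries with 10 reads each and in shCHD7-2 replicate 2 with 11 reads, and the other 2 were each called in shCHD7-2 replicate 1 alone, with 11 and 12 reads at their summits.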
